A study of Mus musculus with 4 samples.

Results

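The nuclei described here were the glial and other non-neuronal nuclei of snRNA-seq libraries taken 1 and 3 days after permanent middle cerebral artery occlusion (MCAO), an experimental stroke, in the mouse. They were barcodes with more than 1000 UMIs (unique molecular identifiers, each counting 1 RNA molecule) in which Rbfox3, Snap25, Syt1 and Meg3, genes of neurons, held under 0.2% of the UMIs. This rule was met by 372 of 1203 barcodes at day 1 and by 1041 of 3734 at day 3, which was 1413 of the 4937 barcodes over the minimum in this pair of libraries and of the 8909 in all 4 libraries of the series. All groups were male C57Black/6 mice aged 3 months. At days 1, 3 and 7 the artery had been coagulated and cut, which leaves a small infarct in the parietal cortex. A library labelled sham served as the uninjured side, and the protocol names intact cortex as its control tissue. Each library was made from 3 pooled forebrain hemispheres, so nuclei of the lesion and of tissue outside it lay in the same library. With 1 library a group there was no replicate and no test, and the intervals given are exact 95% intervals that cover counting error only.

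Glia respond to ischaemia in characteristic ways. Microglia, the resident macrophages of the brain, clear debris and load their lysosomes. Astrocytes, which buffer potassium and take up glutamate, build intermediate filaments and line the lesion, and their water channel sits at the blood vessels. Oligodendrocytes make myelin and are replaced by dividing precursors, and vessels and fibroblasts supply matrix to the scar.

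The day 1 glial nuclei were deeper than those of day 3, with a median of 3310.5 against 2286 UMIs a nucleus and a sum of 1539082 against 3082399 UMIs. Free RNA, estimated from neuronal transcripts in the glial nuclei, made up 17.7% of their UMIs at day 1 and 22.2% at day 3. Mitochondrial genes held 7.62% and 7.92%. No member barcode was shared by the day 1 and day 3 libraries. The published numbers of nuclei matched the deposited libraries only with the last pair of time labels exchanged, which alone does not settle which library is which. The labels were kept, and values of the library labelled day 7 are given for many of the results, beside them or in the closing sections. The day 3 library also stood apart from the other 3 in a pair of transcripts: mt-Nd3, a subunit of mitochondrial complex I, had 1821 UMIs over all barcodes at day 1, 3261 in the sham library, 2323 at day 7 and 1 at day 3, whereas the pseudogene Gm28438 had 5254 at day 3 and 1 to 3 elsewhere. The mitochondrial genes mt-Nd2 and mt-Nd4 showed no such gap. Just inside the limit, 62 nuclei at day 1 and 254 at day 3 held 0.15% to 0.2% of their UMIs in the neuronal genes, and just outside it 22 and 179 barcodes held 0.2% to 0.25%.

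A nucleus was put in a class when it held at least 3 UMIs from at least 2 marker genes of that class, at more than 3 times the share these markers have in low-count barcodes. At day 1 this gave 155 oligodendrocyte-like, 79 astrocyte-like, 32 microglia-like, 22 precursor-like, 6 endothelial-like and 3 fibroblast-like nuclei. At day 3 it gave 316, 221, 113, 58, 58 and 23. In microglia-like nuclei the microglial markers summed to 11597 CPM (UMIs per 1000000 UMIs of the summed nuclei) at day 1 and 11897 at day 3, the astrocyte markers to 582 and 885, the oligodendrocyte markers to 591 and 783, and the neuronal markers to 816 and 1199. In precursor-like nuclei at day 1 the precursor markers summed to 10604 CPM and the astrocyte markers to 4519. In the 3 fibroblast-like nuclei of day 1 the astrocyte markers (3752 CPM) were above the fibroblast markers (2971), whereas at day 3 the fibroblast markers were higher (8471 against 2328). In endothelial-like nuclei the endothelial markers summed to 21798 and 17400 CPM at day 1 and day 3, and the mural markers, those of pericytes and smooth muscle, to 3320 and 3023. Markers of infiltrating monocytes in microglia-like nuclei summed to 516 and 557 CPM, and those of border macrophages to 225 and 372, and the class markers do not tell microglia from these cells. The genes with the highest fold over the other nuclei in microglia-like nuclei included the class II genes Cd74 and H2-Ab1 and the scavenger receptor Msr1 at day 1, and C5ar1 and Msr1 at day 3, and those of precursor-like nuclei at day 1 were led by the cell cycle gene Top2a. Nuclei of no class made up 12.4% at day 1 and 17.1% at day 3, beside 2.78% in the sham library. Mitochondrial genes held 36.0% and 32.3% of their UMIs at day 1 and day 3. Free RNA, estimated from neuronal transcripts, made up 44.6% and 54.2%, so that these barcodes may not be glia. They stayed in the sums over all glial nuclei, where they held 7.39% and 12.3% of the UMIs. A further 18 and 37 nuclei held markers of more than 1 class.

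Oligodendrocyte-like nuclei made up less of the glial nuclei at day 3 and endothelial-like nuclei more. The oligodendrocyte-like share was 41.7% (36.6 to 46.9) at day 1 and 30.4% (27.6 to 33.2) at day 3, a difference of -11.3 percentage points (-17.1 to -5.64). The endothelial-like share was 1.61% (0.594 to 3.48) at day 1 and 5.57% (4.26 to 7.14) at day 3, a difference of 3.96 points (1.72 to 5.75). Both intervals left out 0, and with every nucleus thinned to 1000 UMIs the shares were 40.9% and 30.7% for oligodendrocyte-like, and 1.61% and 5.48% for endothelial-like nuclei. In the sham library these shares were 45.6% and 4.58%, and in the library labelled day 7 42.5% and 2.98%, so that the oligodendrocyte-like share was lowest at day 3 and the endothelial-like share lowest at day 1. With the library labelled day 7 in the place of day 3, the oligodendrocyte-like difference was 0.791 points.

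The microglia-like share was 8.60% at day 1 and 10.9% at day 3, with a difference of 2.25 points (-1.47 to 5.43). The astrocyte-like share was 21.2% in both libraries, with an interval of -5.04 to 4.63 points around the difference. Precursor-like nuclei were 5.91% and 5.57% (difference -3.47 to 2.18 points) and fibroblast-like nuclei 0.806% and 2.21% (difference -0.30 to 2.61 points). These 4 intervals included 0, so that by this class rule and at this number of nuclei no difference was detectable in them. The astrocyte-like difference was 6.39 points among nuclei under 5% mitochondrial UMIs and 6.41 points where 2 markers were enough, and the microglia-like difference was -2.28 points above 2000 UMIs. In the library labelled day 7 the microglia-like, astrocyte-like, precursor-like and fibroblast-like shares were 12.7%, 17.5%, 4.84% and 1.68%. A share of nuclei cannot tell apart fewer oligodendrocytes and more of the other nuclei, and the recovery of nuclei from injured tissue was not measured.

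**Figure D1:**
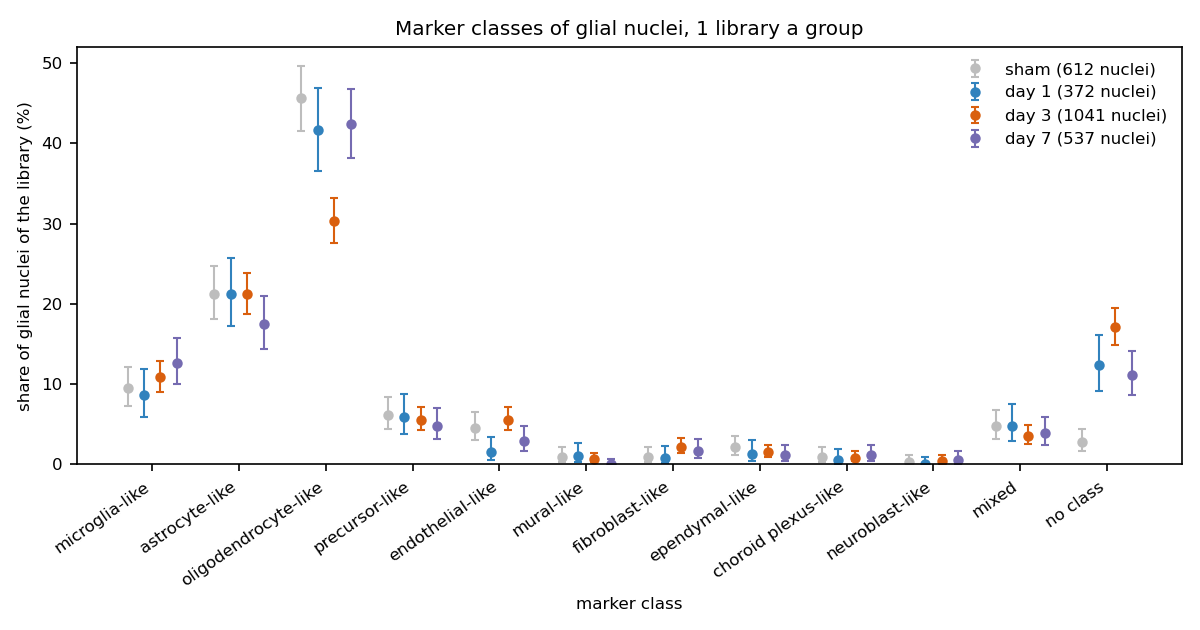
Share of the glial nuclei (y axis, %) in each marker class (x axis) for the 4 libraries; points are shares and bars exact 95% binomial intervals. The oligodendrocyte-like share stands at 41.7% at day 1 and 30.4% at day 3, and the endothelial-like share at 1.61% and 5.57%.

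Over all glial nuclei summed, 592 of 12489 genes compared (4.74%) were at least 2-fold higher at day 3 and 245 (1.96%) at least 2-fold lower. Genes with at least 30 UMIs over both libraries were compared. With the classes held at equal shares 311 were higher and 213 lower, and with free RNA removed 1232 and 512. With the library labelled day 7 in place of day 3 the counts were 359 and 185. Among nuclei of a marker class only they were 600 and 195. Genes that respond to interferon or present antigen on class I molecules were mostly higher: of a list of 16, 13 could be compared, and 9 were at least 2-fold higher and none lower, with a median log2 ratio of 1.02 against 0.06 over all genes. The same members had a median of 0.77 in barcodes of low count, which hold free RNA, and of 0.76 in neuronal nuclei, so that the higher level was not limited to the glial nuclei. With the classes held at equal shares the median was 0.59. Within the classes few members could be compared. At least 2-fold higher were 1 of 3 in microglia-like, 1 of 4 in astrocyte-like and 0 of 3 in oligodendrocyte-like nuclei.

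Interferon-responsive genes are switched on by a complex that includes STAT2 and IRF9 and binds an element whose core is GAAA, 2 bases of any kind and GAAA again. The promoter windows of the list members that hold these letters are shown because 4 of the 5 genes were at least 2-fold higher at day 3 in the glial nuclei. They are from RefSeq (GRCm38.p6), on the strand of the gene and 5′ to 3′, with each match or run of overlapping matches in capitals and 25 bases of flank; TTTC, 2 bases and TTTC is the same core on the other strand. B2m lies on chr2:122147523-122147582 (+), Bst2 on chr8:71537562-71537627 (−), Ifit3 on chr19:34583348-34583441 (+), Isg15 on chr4:156200850-156200921 (−) and Stat2 on chr10:128270251-128270310 (+).
Isg15: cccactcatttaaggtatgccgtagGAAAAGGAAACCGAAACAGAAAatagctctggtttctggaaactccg
Bst2: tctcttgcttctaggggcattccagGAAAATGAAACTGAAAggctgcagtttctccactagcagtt
Ifit3: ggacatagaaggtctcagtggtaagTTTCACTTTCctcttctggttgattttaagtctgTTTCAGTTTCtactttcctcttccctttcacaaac
B2m: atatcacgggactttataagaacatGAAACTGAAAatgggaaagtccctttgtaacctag
Stat2: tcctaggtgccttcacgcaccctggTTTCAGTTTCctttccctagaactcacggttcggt
The letters were searched from 250 bases before to 50 after the start, on both strands. Of the 16 list members 11 were in the table and 5 held them, beside 1079 of all 27025 genes (3.99%); Tap2, Ifi27, Ifi27l2a and Nlrc5 were among those not in the table. Isg15 held 3 overlapping matches that began 78 to 66 bases before its start, Bst2 2 matches from 130 bases, Ifit3 2 from 156 and 122 bases, B2m 1 at 139 and Stat2 1 at 222. A match describes the letters and is not a shown binding site.

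Isg15, a ubiquitin-like protein induced by interferon, stood at 1.95 CPM at day 1 (3 UMIs), 14.9 at day 3 (46 UMIs), 16.6 in the sham library and 13.4 at day 7, a day 3 over day 1 ratio of 7.66 (2.46 to 38.5). Its log2 ratio was 2.94, and 0.10 with nuclei thinned to 1000 UMIs. Bst2, which tethers budding viruses, stood at 3.90 CPM at day 1, 18.5 at day 3, 16.6 in the sham library and 28.4 at day 7 (ratio 4.74, 2.05 to 13.5). For both, day 1 was the low library, and day 3 lay near the sham library. Ifit3, another interferon-induced antiviral protein, had 3.25 CPM at day 1, 12.3 at day 3 and 10.2 in the sham library (ratio 3.79, 1.49 to 12.4).

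Class I molecules followed. H2-D1, a class I heavy chain, was at 31.8 CPM at day 1 and 78.2 at day 3 (ratio 2.46, 1.80 to 3.41), with 60.1 in the sham library. B2m, the light chain of class I, was at 46.8 CPM at day 1 and 98.3 at day 3 (ratio 2.10, 1.62 to 2.76), with 51.5 in the sham library and 109 at day 7. H2-K1 (2.03), Irf9 (2.03) and Tap2, a subunit of the peptide transporter (2.03), were only just past 2-fold. Ifi27 had a ratio of 1.58 (1.18 to 2.14), and Stat2, whose window holds the same core, one of 0.83 (0.600 to 1.16).

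Much of this signal lay in endothelial-like nuclei, whose share differed between the libraries. Of 46 Isg15 UMIs at day 3, 36 were in endothelial-like nuclei, and of 303 B2m UMIs 134 were. Within the endothelial-like nuclei B2m stood at 676 CPM at day 1 (22 UMIs in 6 nuclei) and 461 at day 3. In microglia-like nuclei it stood at 150 CPM (16 UMIs) and 199 (45 UMIs), and in astrocyte-like nuclei at 31.9 and 48.0. H2-D1 went from 84.4 to 164 CPM in microglia-like nuclei and from 615 to 426 in endothelial-like nuclei. Ddx60, an interferon-induced helicase, had 5 UMIs at day 1 and 77 at day 3 (ratio 7.69, 3.16 to 24.4), of which 30 lay in microglia-like and 16 in endothelial-like nuclei.

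**Figure D2:**
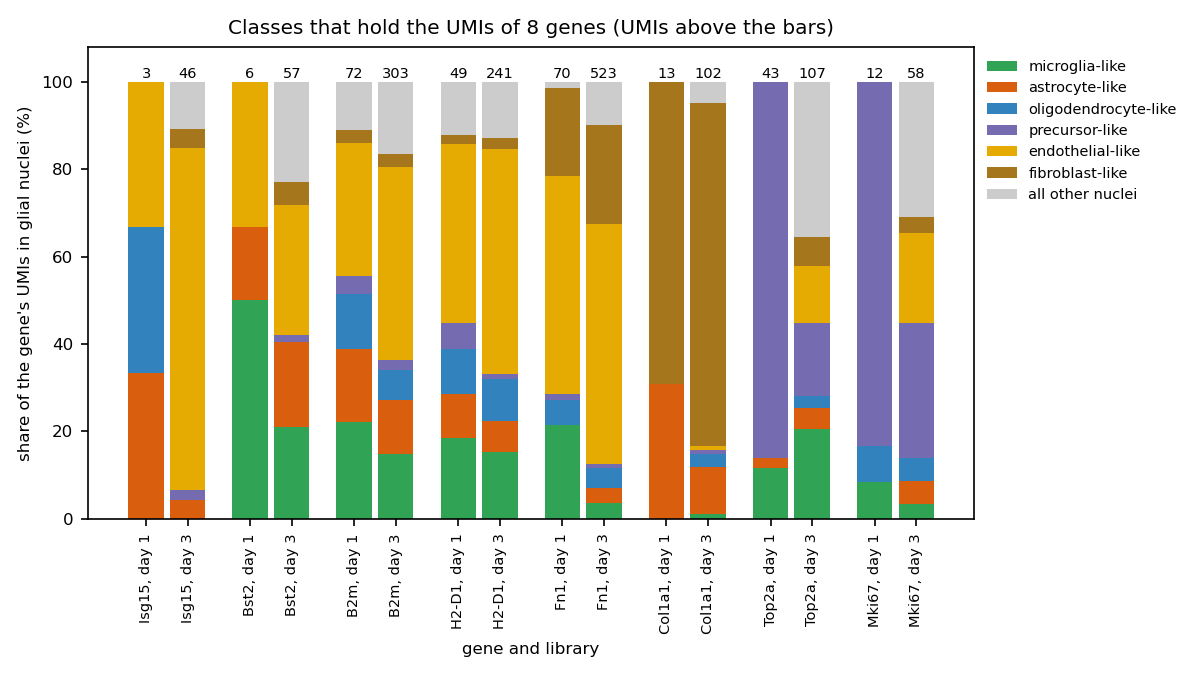
Share of the UMIs of 8 genes in glial nuclei (y axis, %) held by each marker class, for the day 1 and day 3 libraries (x axis); the number above a bar is the UMIs it stands for. Endothelial-like nuclei hold 36 of the 46 Isg15 UMIs at day 3, and precursor-like nuclei 37 of the 43 Top2a UMIs at day 1.

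In microglia-like nuclei the summed levels of the lipid carrier Apoe and the lysosomal genes Gpnmb and Ctsd were higher at day 3 than at day 1. Of 2716 genes compared in them, 182 (6.7%) were at least 2-fold higher at day 3 and 130 (4.79%) at least 2-fold lower. With free RNA removed 195 were higher and 225 lower, and without the nucleus with most UMIs of each gene 330 and 77. Of 24 genes of reactive microglia 16 could be compared, and 6 were at least 2-fold higher and none lower, with a median log2 ratio of 0.67 against 0.01 over all genes compared. The same members had a median of 0.81 in low-count barcodes and of 1.23 in neuronal nuclei.

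Apoe (chr7:19696109-19699188, − strand), the main lipid carrier of the brain, stood at 603 CPM in the sham library, 319 on day 1, 4348 on day 3 and 3166 on day 7. The day 3 over day 1 ratio was 13.6 (9.69 to 19.8), from 34 and 983 UMIs, and low-count barcodes had a ratio of 1.45. Thinned to 1000 UMIs, 28.1% of microglia-like nuclei (13.7 to 46.7) held an Apoe UMI at day 1 and 74.3% (65.3 to 82.1) at day 3. Oligodendrocyte-like nuclei, which are not known for Apoe, held one in 35.5% and 46.2%, so that the day 1 share in microglia-like nuclei was at background and that of day 3 above it. Under the alternatives the log2 ratio lay between 2.80 and 5.77.

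Gpnmb (chr6:49036546-49070929, + strand), a lysosomal membrane protein of lipid-laden macrophages, had no UMI in the sham library, 1 at day 1 (9.38 CPM), 72 at day 3 (318 CPM) and 68.1 CPM at day 7. Its ratio of 33.9 had an interval of 5.90 to 1359, and the day 3 UMIs came from 18 of 113 nuclei, 15.9%, beside 5.88% of the nuclei at day 7. With the day 1 sum set to the floor of 3 UMIs its log2 ratio was 3.50, and 1.39 thinned to 1000 UMIs. Thinned, a Gpnmb UMI was held by 0% of the nuclei (0 to 10.9) at day 1 and 12.4% (6.94 to 19.9) at day 3, intervals that overlapped. Ctsd, the lysosomal protease cathepsin D, stood at 885 CPM in the sham library, 441 on day 1, 1437 on day 3 and 1273 on day 7 (day 3 over day 1 3.26, 2.40 to 4.53). Ctsb, cathepsin B, stood at 382, 591, 1097 and 844 CPM in the same order (ratio 1.86, 1.40 to 2.49). Thinned to 1000 UMIs, a Ctsd UMI was held by 40.6% of the nuclei (23.7 to 59.4) at day 1 and 58.4% (48.8 to 67.6) at day 3. For Ctsb these shares were 40.6% (23.7 to 59.4) and 50.4% (40.9 to 60.0), and the intervals overlapped for both genes.

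Cd63, a tetraspanin of late endosomes, was at 113 CPM at day 1 and 287 at day 3 (ratio 2.55, 1.37 to 5.19). Lyz2, lysozyme, was at 122 and 407 CPM (ratio 3.34, 1.86 to 6.50), but 12 of its 13 UMIs at day 1 came from 1 nucleus. That nucleus also held 22 of the 23 UMIs of Lgals3, and 75% of the day 1 UMIs of Spp1, osteopontin, lay in 1 nucleus (ratio 1.47, 1.06 to 2.08). Igf1, a growth factor, had 1 UMI at day 1 and 29 at day 3, 37.9% of them in 1 nucleus.

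Other reactive genes were level: Tyrobp, an adaptor of microglial receptors, had a ratio of 0.964 (0.567 to 1.69), Ctss, cathepsin S, one of 1.15 (0.881 to 1.50) and Ctsl, cathepsin L, one of 0.732 (0.479 to 1.13). Trem2, a lipid receptor that signals through Tyrobp, had 1.65 (0.933 to 3.08).

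Homeostatic genes of microglia did not stand lower at day 3. Of 14 such genes 11 could be compared, and 1 was at least 2-fold higher and none lower, with a median log2 ratio of 0.10. P2ry12, the ADP receptor that guides microglial processes, stood at 1016 CPM in the sham library, 516 on day 1, 663 on day 3 and 626 on day 7 (day 3 over day 1 1.29, 0.938 to 1.78). Csf1r, the receptor for the survival factors of microglia, stood at 885, 535, 805 and 681 CPM (ratio 1.51, 1.11 to 2.06). For both, the 3 injured libraries lay below the sham library, although the intervals of Csf1r at day 3 and day 7 overlapped that of the sham library. Cx3cr1, the fractalkine receptor, had a ratio of 1.03, and the gene past 2-fold was Sparc (2.14, 1.16 to 4.25), a matrix protein.

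Among complement genes in microglia-like nuclei, the C1q chains, which start the classical pathway, had ratios of 1.12 (C1qa), 1.32 (C1qb) and 1.26 (C1qc), each with an interval that included 1. C5ar1, the receptor for the chemoattractant C5a, stood at 70.4 CPM in the sham library, 281 on day 1, 88.5 on day 3 and 68.1 on day 7 (ratio 0.314, 0.169 to 0.572), so that day 1 was the only high library. Of 9 complement genes 6 could be compared, and none was at least 2-fold higher and 2 were lower.

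Of 12 lipid storage and efflux genes 7 could be compared and none was past 2-fold in either direction, beside 6.7% higher and 4.79% lower over all genes. A ratio above 1 was found for 6 of the 7, none with an interval above 1. The median log2 ratio was 0.21 against 0.01 over all genes compared, and 0.23 in low-count barcodes. Plin2, the coat of lipid droplets, stood at 40.2 CPM in the sham library, 328 on day 1, 429 on day 3 and 150 on day 7 (ratio 1.31, 0.879 to 1.98), so that it was already high at day 1. Abca1, a cholesterol exporter, stood at 352, 769, 858 and 1021 CPM (ratio 1.12, 0.857 to 1.46). Of 12 chemokines and cytokines only Tgfb1 reached the minimum, with a ratio of 1.21 (0.785 to 1.90) in all glial nuclei and of 0.645 (0.343 to 1.23) in microglia-like nuclei, and Ccl2 had 12 UMIs at day 1 and 4 at day 3.

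Among the genes of the widest differences in microglia-like nuclei, besides Apoe and Gpnmb, Arhgap15, a regulator of Rac, stood at 261 CPM in the sham library, 37.5 on day 1, 274 on day 3 and 211 on day 7 (ratio 7.31, 2.71 to 27.7). Sash1 stood at 20.1, 37.5, 252 and 279 CPM (ratio 6.72), with most of its 4 day 1 UMIs in 1 nucleus. Sepp1, the selenium carrier of plasma, stood at 161, 28.1, 181 and 238 CPM (ratio 6.44, 2.06 to 32.5). Arhgap15 and Sepp1 were thus low at day 1 and near the sham library at day 3, whereas Sash1 was high only from day 3 on. With nuclei thinned to 1000 UMIs the log2 ratios of Arhgap15, Sash1 and Sepp1 were 1.49, 1.13 and 0.57. On the lower side, besides C5ar1, Dusp16, a phosphatase of JNK and p38, went from 216 to 53.1 CPM (0.246, 0.112 to 0.515). Gm26827 had a ratio of 0.236, Arl8a, a GTPase of lysosome positioning, one of 0.314, and Ptgds, prostaglandin D synthase, one of 0.291. The ratio of Ptgds in low-count barcodes was 0.318.

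**Figure D3:**
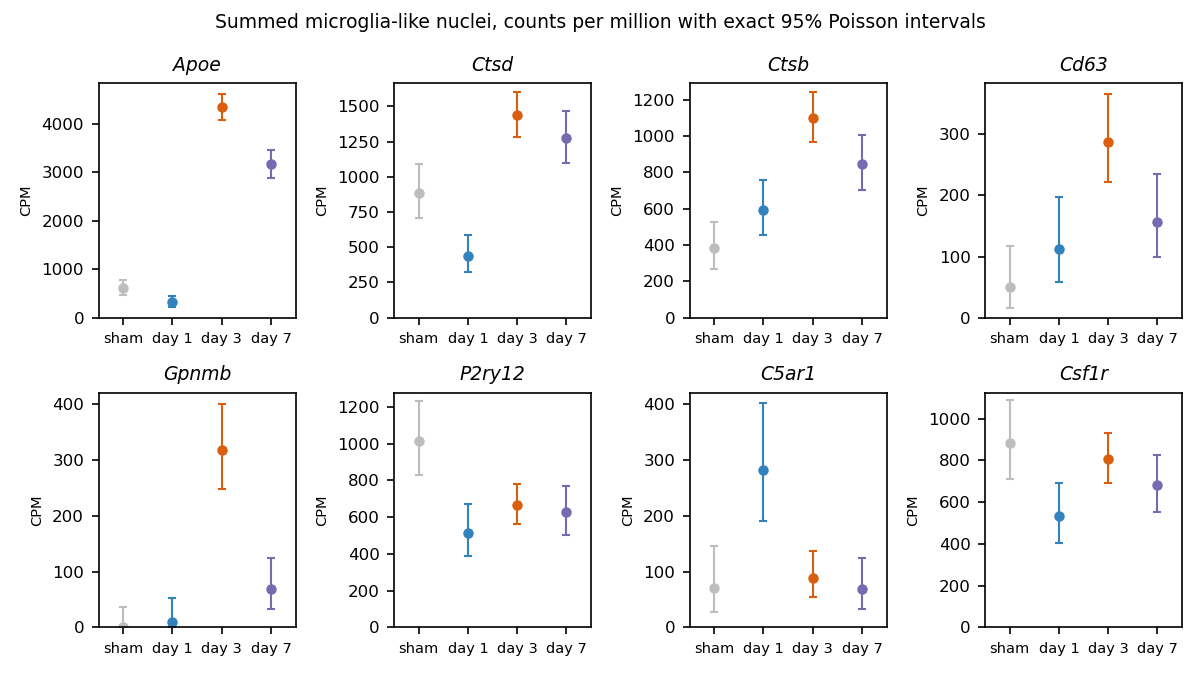
CPM (y axis) of 8 genes in summed microglia-like nuclei of the 4 libraries (x axis); points are levels and bars exact 95% Poisson intervals. Apoe stands at 319 CPM at day 1 and 4348 at day 3, whereas C5ar1 is highest at day 1.

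In astrocyte-like nuclei 404 of 6450 genes compared (6.26%) were at least 2-fold higher at day 3 and 139 (2.16%) lower. The median log2 ratio over all genes was 0.14 here, and after scaling by the trimmed mean of M values (TMM) 261 were higher and 233 lower. Without the nucleus with most UMIs of each gene 668 were higher and 86 lower. Mitochondrial genes held 13.3% of the UMIs of these nuclei at day 1 and 7.18% at day 3. Among nuclei with under 5% mitochondrial UMIs, a limit chosen after the data were seen, 252 genes were higher and 142 lower, and the median was 0.05. Ratios below are without that scaling and are to be read against 0.14.

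Among reactive genes of astrocytes, S100a6 and Vim were higher at day 3, whereas the level of Gfap was above that of the sham library at day 1 too. Of 22 genes 15 could be compared; 4 were at least 2-fold higher and none lower, with a median log2 ratio of 0.42. The same members had a median of 0.41 in low-count barcodes and of 0.60 in neuronal nuclei. S100a6 (chr3:90612882-90624181, + strand), a calcium-binding protein, stood at 20.0 CPM in the sham library, 18.6 on day 1, 196 on day 3 and 66.6 on day 7 (day 3 over day 1 10.5, 5.00 to 26.7), with a UMI in 6 of 79 nuclei at day 1 and 53 of 221 at day 3. Its log2 ratio was 3.40, and 1.72 thinned to 1000 UMIs. Thinned, oligodendrocyte-like nuclei held an S100a6 UMI in 0% and 3.48%. Vim, the intermediate filament vimentin, stood at 57.7 CPM in the sham library, 71.7 on day 1, 352 on day 3 and 122 on day 7 (ratio 4.91, 3.30 to 7.59). Thinned, a Vim UMI was held by 8.86% of astrocyte-like nuclei at day 1 (3.64 to 17.4) and 12.7% at day 3 (8.59 to 17.8), intervals that overlapped, and by 2.58% and 7.28% of oligodendrocyte-like nuclei; 1 astrocyte-like nucleus at day 3 held 45 Vim UMIs. For both genes the sham and day 1 intervals overlapped and day 3 was the highest library.

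Gfap, the filament protein that defines reactive astrocytes, stood at 206 CPM in the sham library, 611 on day 1, 819 on day 3 and 568 on day 7 (day 3 over day 1 1.34, 1.15 to 1.57). Thinned to 1000 UMIs, a Gfap UMI was held by 10.8% of these nuclei in the sham library (6.01 to 17.4), 20.3% on day 1 (12.04 to 30.8) and 32.1% on day 3 (26.0 to 38.7). Mt1, a metallothionein, was highest at day 1, with 1367 CPM in the sham library, 2968 on day 1, 2353 on day 3 and 1847 on day 7 (ratio 0.793, 0.735 to 0.855). Mt2, its neighbour, had a ratio of 1.58 (1.34 to 1.88).

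Serpina3n, a protease inhibitor, was at 18.6 and 53.2 CPM (ratio 2.86, 1.27 to 7.57), and Lcn2, lipocalin 2, had 1 UMI at day 1 and 34 at day 3, of which 58.8% were in 1 nucleus. Stat3 (1.02), Clu (1.05) and Cst3 (0.968) were level. Thinned to 1000 UMIs, the median of the list was -0.09.

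Homeostatic genes of astrocytes were level or somewhat higher: of 14 genes, all compared, 1 was at least 2-fold higher and none lower. The median log2 ratio was 0.28. The same members had a median of 0.42 in low-count barcodes and of 0.81 in neuronal nuclei. Aqp4, the water channel of the end-feet, stood at 266 CPM in the sham library, 220 on day 1, 506 on day 3 and 257 on day 7 (day 3 over day 1 2.30, 1.81 to 2.95), and day 3 was the high library. Thinned to 1000 UMIs, an Aqp4 UMI was held by 22.3% of these nuclei in the sham library (15.5 to 30.4), 15.2% on day 1, 24.9% on day 3 (19.3 to 31.1) and 20.2% on day 7, intervals that overlapped. A gene on the other strand overlaps it, and the counting's use of strand is not stated. Slc4a4, a bicarbonate transporter, had a ratio of 1.64 (1.48 to 1.83) and Gja1, connexin 43, one of 1.67 (1.31 to 2.15); both were lowest at day 1. The glutamate transporters differed, with 1.38 (1.25 to 1.52) for Slc1a3 and 1.04 (0.994 to 1.09) for Slc1a2. Glul, glutamine synthetase, had 0.909 (0.799 to 1.03).

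The widest differences in astrocyte-like nuclei, besides S100a6, were those of Recql5, a DNA helicase (7.97 to 55.8 CPM, ratio 7.01, 2.24 to 35.3), Lgals1, galectin 1 (10.6 to 68.8 CPM, ratio 6.48, 2.39 to 24.7), and Mad1l1 (ratio 5.54, 1.74 to 28.2). In the sham library Recql5 stood at 33.3, Lgals1 at 26.6 and Mad1l1 at 51.0 CPM, so that all had their lowest level at day 1, each from 3 or 4 UMIs. With nuclei thinned to 1000 UMIs the log2 ratios of Recql5, Lgals1 and Mad1l1 were 0.62, 0.28 and -1.18. On the lower side were Rtn2 (0.256), Eif3i (0.275), Lzts3 (0.283) and Ppfia3 (0.290), which were highest at day 1. Gm28438 on the higher side and mt-Nd3 on the lower side met the same rule.

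In oligodendrocyte-like nuclei the glucocorticoid-responsive genes Fkbp5, Cdkn1a and Ddit4 were lower at day 3 than at day 1. Of 6617 genes compared 248 (3.75%) were at least 2-fold higher at day 3 and 169 (2.55%) lower. Above 2000 UMIs 219 were higher and 235 lower, and with free RNA removed 434 and 446. Of the 11 glucocorticoid-responsive genes, all compared, 4 were at least 2-fold lower and none higher, with a median log2 ratio of -0.68 against 0.00 over all genes and -0.28 in low-count barcodes. Among members with at least 100 UMIs the median was -0.05. Of the stress genes 4 could be compared in these nuclei, and none was past 2-fold.

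Fkbp5, a co-chaperone of the glucocorticoid receptor, stood at 96.1 CPM in the sham library, 531 on day 1, 216 on day 3 and 120 on day 7 (day 3 over day 1 0.406, 0.334 to 0.493), with a UMI in 88 of 155 nuclei at day 1 and 111 of 316 at day 3. Thinned to 1000 UMIs, these shares were 30.3% (23.2 to 38.2) and 23.1% (18.6 to 28.1), intervals that overlapped. Cdkn1a (chr17:29090976-29100727, + strand), the cell cycle inhibitor p21, stood at 8.87 CPM in the sham library, 69.3 on day 1, 9.10 on day 3 and 12.2 on day 7 (ratio 0.131, 0.0496 to 0.297), in 27 nuclei at day 1 and 7 at day 3; its log2 ratio was -2.93, and -0.75 with nuclei thinned to 1000 UMIs. Ddit4, an inhibitor of mTOR, stood at 44.3, 105, 31.2 and 36.6 CPM in the sham, day 1, day 3 and day 7 libraries (ratio 0.298, 0.177 to 0.486). A Ddit4 UMI was held by 9.03% (5.03 to 14.7) and 3.16% (1.53 to 5.74) of the thinned nuclei at day 1 and day 3, which also overlapped. In all 3 genes day 1 was the high library.

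Pdk4, a kinase that blocks pyruvate oxidation, had a ratio of 0.439 (0.215 to 0.866) and Errfi1, an inhibitor of growth factor receptors, one of 0.596 (0.451 to 0.786). The mineralocorticoid receptor Nr3c2 (1.31, 0.933 to 1.87), Tsc22d3 (1.26, 0.959 to 1.66) and Zbtb16 (0.965, 0.825 to 1.13) did not follow.

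The same list had other values in other classes. In microglia-like nuclei 4 members could be compared and 2 were at least 2-fold lower (median -0.55), among them Fkbp5, which went from 1482 to 655 CPM. In astrocyte-like nuclei none of 9 was past 2-fold in either direction, and the median was 0.38. There Zbtb16 had a ratio of 1.99 (1.34 to 3.02) and Fkbp5 one of 0.791 (0.567 to 1.11). Whether the classes differ was not tested. In precursor-like nuclei 5 could be compared, none was past 2-fold, and the median was -0.02.

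Of 14 targets of p53, 7 could be compared in oligodendrocyte-like nuclei, of which Cdkn1a alone was past 2-fold; Sesn1, a sestrin, had a ratio of 0.619 (0.461 to 0.830), and the median was -0.53, but 0.12 with nuclei thinned to 1000 UMIs. Zmat3, below the minimum for comparison, had 19 UMIs at day 1 and 4 at day 3.

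Of 15 genes of reactive oligodendrocytes 11 could be compared; 2 were at least 2-fold higher and none lower. The interval lay below 1 for 7 genes and above 1 for 3, and the median log2 ratio was -0.56. With the library labelled day 7 in place of day 3 the median was -0.093. Klk6, a protease of oligodendrocytes, was at 16.0 CPM at day 1 and 41.6 at day 3 (ratio 2.60, 1.21 to 6.19), and C4b, a complement component, at 21.3 and 54.6 (2.56, 1.32 to 5.34). On the other side, Rhoj, a small GTPase, stood at 79.8 CPM in the sham library, 302 on day 1, 153 on day 3 and 163 on day 7 (0.508, 0.398 to 0.646). Il33, an alarmin stored in the nucleus, stood at 389, 414, 241 and 393 CPM (0.581, 0.476 to 0.707), lowest at day 3. Neat1, the RNA scaffold of paraspeckles, went from 1308 to 885 CPM (0.677, 0.609 to 0.752).

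Myelin genes in oligodendrocyte-like nuclei were level or higher: none of 14 was past 2-fold, 10 had a ratio above 1, and the median log2 ratio was 0.29. Mbp, myelin basic protein, had a day 3 over day 1 ratio of 1.23 (1.17 to 1.30) and Mobp one of 1.46 (1.35 to 1.59). Myrf, the transcription factor that drives myelin genes, went the other way, with 169, 233, 150 and 204 CPM in the sham, day 1, day 3 and day 7 libraries (0.642, 0.495 to 0.831), as did Ermn, ermin (0.752, 0.609 to 0.928). Over all glial nuclei summed, the median of the myelin list was -0.13, and with the classes held at equal shares it was 0.30.

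Among the widest differences in oligodendrocyte-like nuclei, Mcmdc2 went from 60.4 CPM at day 1 to 6.50 at day 3 (0.108, 0.0328 to 0.276), with 11.8 in the sham library; the RNA gene Snhg6 overlaps it on the other strand. Tma16, a factor of ribosome assembly, stood at 48.8, 148, 28.6 and 42.7 CPM (0.194, 0.115 to 0.313). The transcripts Gm7135 (0.186) and Gm17359 (0.194) followed the same order, with day 1 as the high library. On the higher side, besides Gm28438, Fabp7, a fatty acid binding protein of early glia, had 2 UMIs at day 1 and 39 at day 3 (14.3, 3.69 to 122). RP23-402A4.1 had a ratio of 9.75 (3.11 to 49.3) and Mgp, matrix Gla protein, one of 6.83 (2.11 to 35.1); with free RNA removed the log2 ratio of Mgp was 0.47. With nuclei thinned to 1000 UMIs the log2 ratios of Fabp7 and RP23-402A4.1 were 1.34 and 1.25.

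**Figure D4:**
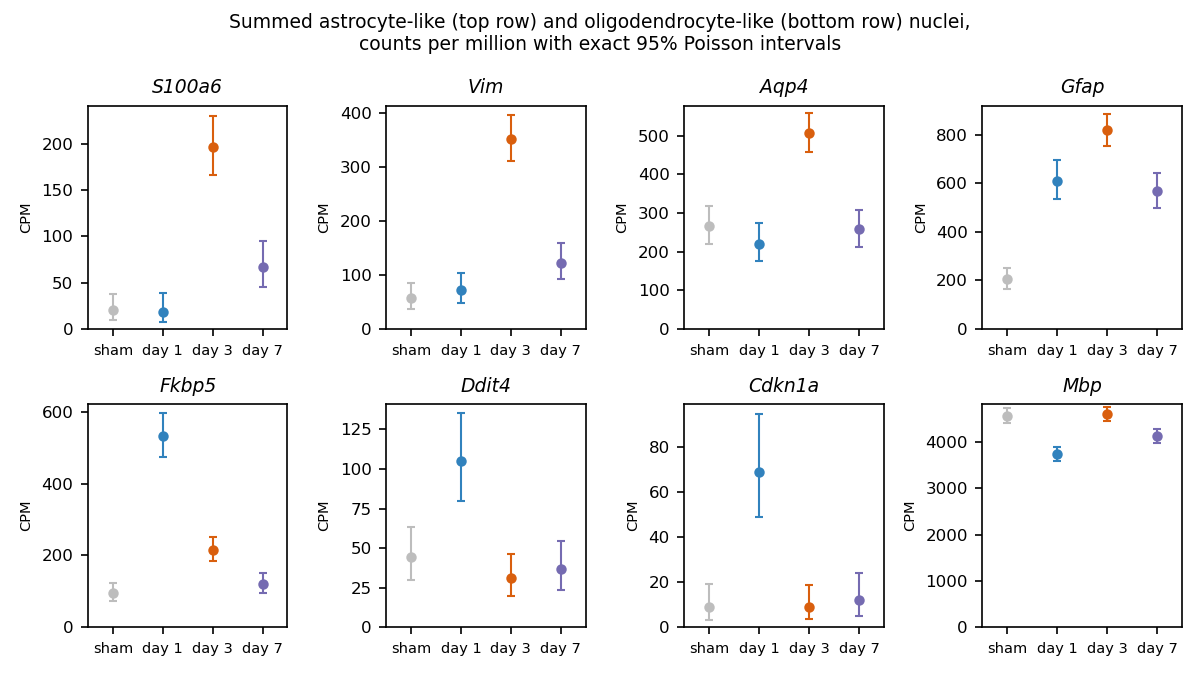
CPM (y axis) in summed astrocyte-like (top row) and oligodendrocyte-like (bottom row) nuclei of the 4 libraries (x axis), 4 genes each; points are levels and bars exact 95% Poisson intervals. S100a6, Vim and Aqp4 are highest at day 3, and Fkbp5, Ddit4 and Cdkn1a at day 1.

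Precursor-like nuclei, 22 at day 1 and 58 at day 3, had 78 of 2232 genes compared (3.49%) at least 2-fold higher and 47 (2.11%) lower, and 142 and 41 without the nucleus with most UMIs of each gene. Of 12 genes of precursor identity and differentiation 8 could be compared, none was past 2-fold, and the median log2 ratio was -0.28. Pdgfra, the receptor that keeps precursors dividing, stood at 883 CPM in the sham library, 947 on day 1, 727 on day 3 and 1133 on day 7 (day 3 over day 1 0.767, 0.602 to 0.977). Tcf7l2, a factor of early differentiation, stood at 196, 119, 217 and 347 CPM (1.82, 1.02 to 3.40). Vcan, a matrix proteoglycan (1.08), and Olig2, the lineage factor (0.839), had intervals that included 1.

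The widest differences there were in Rps12 (6.47, 1.99 to 33.3), Camk2n1, an inhibitor of CaMKII (4.4), Rpl23 (4.03), Tbck (3.95) and Papss1 (3.71) on the higher side, from 3 to 8 UMIs at day 1. With nuclei thinned to 1000 UMIs the log2 ratios of Rps12, Rpl23 and Tbck were -0.20, -0.42 and -0.42. Sh3rf3 (0.288), Sf3b2 (0.344), Wdr70 (0.347), Rasgrf1 (0.399) and Pura (0.411) were lower.

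Proliferation genes over all glial nuclei had a median log2 ratio of 1.07, with 6 of 10 compared at least 2-fold higher and none lower; 13 of the 15 list members were in the files. Cenpe, a motor of the kinetochore, was at 6.44 CPM in the sham library, 4.55 on day 1, 18.8 on day 3 and 10.7 on day 7 (4.14, 1.89 to 10.7). Mki67, the antigen of dividing cells, was at 4.30, 7.80, 18.8 and 7.49 CPM (2.41, 1.28 to 4.94). A Mki67 UMI was held by 1.08% of the glial nuclei at day 1 and 1.83% at day 3, by 0.538% and 0.384% once thinned to 1000 UMIs, and by 3.37% and 2.82% of the neuronal nuclei, whose median depth was 12834 and 6356 UMIs, so that the share of glial nuclei could not be told from background. Mcm6, a subunit of the replicative helicase, had a ratio of 2.78 and Kif11, a spindle motor, one of 2.30.

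The nuclei behind these genes were not of the same class. Precursor-like nuclei held 10 of 12 Mki67 UMIs at day 1 and 18 of 58 at day 3. Top2a, topoisomerase II of dividing cells, had 43 and 107 UMIs (1.24, 0.865 to 1.81). Of these, precursor-like nuclei held 37 at day 1, while at day 3 the UMIs lay in microglia-like (22), precursor-like (18) and endothelial-like nuclei (14) and in nuclei with markers of more than 1 class (28). At day 1, 46.5% of the Top2a UMIs and 66.7% of those of Mki67 lay in 1 nucleus. The list's median was 1.92 in low-count barcodes, and 0.02 among members with at least 100 UMIs.

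Several genes of vessels and matrix were higher over all glial nuclei at day 3, with many of their UMIs in endothelial-like or fibroblast-like nuclei. In endothelial-like nuclei, 6 at day 1 and 58 at day 3, 147 of 2487 genes compared (5.91%) were at least 2-fold higher and 188 (7.56%) lower. Without the nucleus with most UMIs of each gene 268 were higher and 43 lower, and thinned to 1000 UMIs 5 and 22. Adgrl4 (chr3:151437887-151545086, + strand), an adhesion receptor of endothelium, had 43 and 633 UMIs in all glial nuclei (ratio 7.35, 5.39 to 10.3), 555 of the latter in endothelial-like nuclei. Its level there was 1322 CPM at day 1 and 1909 at day 3, and with the classes held at equal shares the log2 ratio was 0.63 in place of 2.88. Adgrl4 is itself a marker that placed nuclei in this class. Fgd5 (7.29) and Hspa12b (7.78), both of endothelium, and Higd1b, known from pericytes (13.5, 3.56 to 114), likewise had most of their day 3 UMIs, 61 of 73, 77 of 109 and 36 of 54, in endothelial-like nuclei. With nuclei thinned to 1000 UMIs the log2 ratio of Higd1b was 0.52.

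Of 15 matrix and scar genes 14 could be compared, and 6 were at least 2-fold higher and 1 lower. The median log2 ratio was 0.70, with 0.25 where the classes were held at equal shares and 0.82 in low-count barcodes. With the library labelled day 7 in place of day 3 the median was 0.053. Col1a1, the chain of fibrillar collagen I, stood at 9.66 CPM in the sham library, 8.45 on day 1, 33.1 on day 3 and 10.2 on day 7 (3.92, 2.19 to 7.61). Of its 102 UMIs at day 3, 80 lay in fibroblast-like nuclei, within which it stood at 352 CPM at day 1 (9 UMIs) and 773 at day 3. Fn1, fibronectin, stood at 93.4, 45.5, 170 and 98.5 CPM in the 4 libraries in order of time (3.73, 2.90 to 4.86). Within endothelial-like nuclei, which held 288 of 523 UMIs, Fn1 was at 1076 CPM at day 1 and 991 at day 3. Within fibroblast-like nuclei it was at 547 and 1140.

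Col3a1 (3.13), Col1a2 (2.53), Col4a2 (2.32) and Lamb1, a laminin chain of the basement membrane (2.18), were also past 2-fold. Timp1, an inhibitor of matrix proteases, was the lower one (0.363, 0.245 to 0.535), and 74.2% of its day 1 UMIs lay in 1 nucleus. Bgn, biglycan, had 2 UMIs at day 1 and 57 at day 3 (14.2, 3.76 to 120), 27 of them in fibroblast-like nuclei; with nuclei thinned to 1000 UMIs its log2 ratio was 0.52. Pde5a, a phosphodiesterase of contractile cells, had 5 and 81 (8.09, 3.33 to 25.6), of which 36 lay in fibroblast-like and 26 in endothelial-like nuclei.

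Of 16 stress genes 14 could be compared, 2 were at least 2-fold higher and 2 lower, and the median log2 ratio was -0.09, against -0.85 in low-count barcodes. Hspa1a, an inducible heat shock protein, was at 2.68 CPM in the sham library, 19.5 on day 1, 9.08 on day 3 and 3.75 on day 7 (0.466, 0.268 to 0.807), and Hspa1b at 1.07, 19.5, 4.54 and 0.535 (0.233, 0.114 to 0.453). Low-count barcodes held more of both at day 1, 82.3 and 54.5 CPM, than the glial nuclei did. Hmox1, haem oxygenase 1, was at 8.45 CPM at day 1 and 34.4 at day 3 (4.07, 2.28 to 7.90), with 36.8% of the day 3 UMIs in 1 nucleus, 44 of 106 in nuclei of no class and 38 in microglia-like nuclei.

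Hypoxia and glycolysis genes were level over all glial nuclei. Of 15, 13 could be compared, 1 was past 2-fold, and the median log2 ratio was 0.07. That gene was Ankrd37, with 5 and 29 UMIs (2.90, 1.11 to 9.58). Slc2a1, the glucose transporter of vessels and glia, had a ratio of 1.64 (1.41 to 1.91), and Vegfa, the vascular growth factor, one of 0.877 (0.688 to 1.12). Within the classes fewer members could be compared. In oligodendrocyte-like nuclei 0 of 6 had a ratio above 1, with a median of -0.33. The medians were -0.05 in astrocyte-like (6 genes), -0.43 in microglia-like (3) and -0.41 in precursor-like nuclei (2). In microglia-like and in precursor-like nuclei 1 gene each was at least 2-fold lower.

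**Figure D5:**
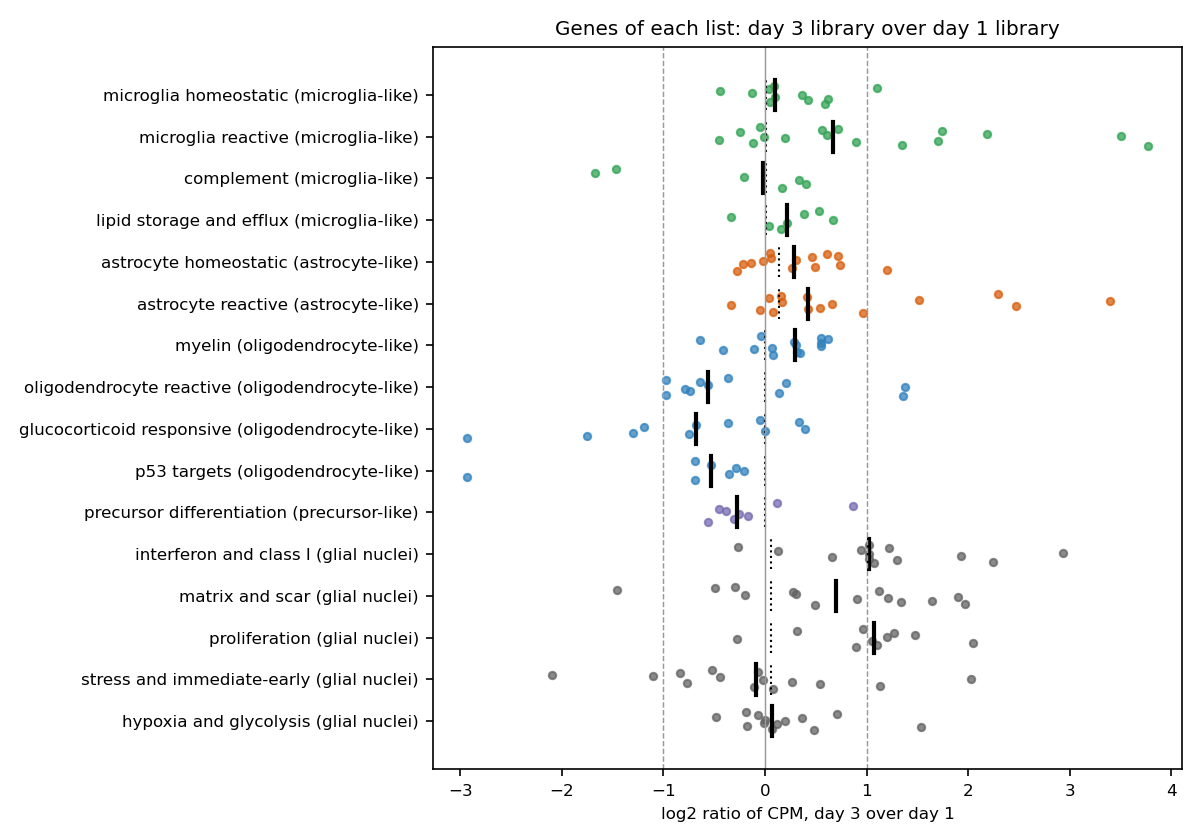
Log2 ratio of CPM, day 3 over day 1 (x axis), of the genes compared in each list (y axis, with the nuclei summed); each point is a gene, black lines mark the list's median, dotted lines the median over all genes compared in the same nuclei, and dashed lines 2-fold. The interferon and class I list has its median at 1.02 and the glucocorticoid list in oligodendrocyte-like nuclei at -0.68.

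Over all glial nuclei the widest differences, apart from those named above, were at least 272-fold for Gm28438 (no UMI at day 1 and 1637 at day 3, against a floor of 3 UMIs) and at least 11.5-fold for 1700001K19Rik (0 and 69 UMIs, in 58 nuclei). Both belonged to the day 3 library as a whole, with 0.204 CPM at day 1 and 119 at day 3 for Gm28438, and 1.02 and 7.75 for 1700001K19Rik, in low-count barcodes. The lowest was mt-Nd3, with 454 UMIs at day 1 and 0 at day 3. Gm7135 (0.166), Gm12526 (0.166), Gm43832 (0.233), Tma16 (0.239), Gm38048 (0.25), Dtnbos (0.272), Rpl9-ps6 (0.275) and Mcmdc2 (0.276) followed. Cd244, a receptor of natural killer and myeloid cells, had 22 UMIs at day 1 and 9 at day 3 (0.204, 0.0828 to 0.462), and 20 and 6 of these lay in microglia-like nuclei. Tma16 and Mcmdc2 had 83 of 92 and 34 of 38 of their day 1 UMIs in oligodendrocyte-like nuclei.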

How the data were processed

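The deposited files hold raw UMI counts per gene and barcode; per the study's methods the authors made them with STARsolo (STAR 2.7.3a) over exons and introns, on GRCm38 with GENCODE annotation, without barcode filter or removal of free RNA. Each library had 46983 genes and 23285489 (day 1) to 42963698 (day 3) UMIs. Here nuclei were chosen by the rule given above. The study's own filters were not applied. No doublet caller was run, and nuclei whose second class reached 50% of the first were set apart as mixed. UMIs were summed per library and class and divided by the sum (CPM). Intervals are exact Poisson for levels, exact conditional binomial for ratios, Clopper-Pearson for shares and Newcombe for their differences. Genes with at least 30 UMIs over both libraries were compared, and sums under 3 UMIs were set to 3 for rankings and medians. The free-RNA profile came from barcodes at or below 1000 UMIs. Named genes were the 10 (all glial nuclei) or 5 (each class) with the largest and smallest ratio, with UMIs in at least 10 nuclei of the higher library and under 20% of them in 1 nucleus, besides genes of 17 lists. Results of some of these genes are not reported here. The members and lists were chosen with earlier results of these data known. Gene positions are those of GENCODE vM21, which holds 46488 of the gene identifiers. The scripts were tested on simulated data. Tools were Python 3.11.15, numpy 2.4.6, scipy 1.17.1, pandas 2.3.3 and, for scaling alternatives, edgeR 4.0.16 and DESeq2 1.42.0 in R 4.3.3. Alternatives changed the UMI minimum, the neuronal limit, the depth, the gene minimum, the scaling, the free-RNA treatment, the class rule, the mitochondrial limit, the weights of nuclei and classes, and the library set against day 1.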

Additional observations from a re-analysis of the deposited data

Results flagged for a closer look

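The pseudogene Gm28438 stood at 119 CPM in the low-count barcodes of the day 3 library, which are outside the comparison of nuclei, against at most 0.204 in the low-count barcodes of the other libraries. In the same kind of barcodes Hspa1a stood at 82.3 CPM at day 1, against 7.29 in the sham library, and Hspa1b at 54.5 CPM, against 3.28. The glucocorticoid-responsive list had a median log2 ratio of 0.38 in astrocyte-like and -0.68 in oligodendrocyte-like nuclei; the difference between the classes was not tested. With 1 library a group no library could be set against replicates of its own group.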

How the results depend on the processing

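Of 1527 values under 17 alternatives for 135 results, 1311 stayed within the limits set for them, 203 moved and 13 turned a difference that was at least 2-fold or had an interval without 0; in all, 94 values changed sign, most of them within their limits; where a value moved, the cause was not tested unless the alternative's own construction shows it. The numbers of genes past 2-fold in either direction were 312 (microglia-like), 543 (astrocyte-like), 417 (oligodendrocyte-like), 125 (precursor-like) and 335 (endothelial-like), and in glial nuclei 592 were higher and 245 lower. With a minimum of 10 UMIs they were, in the same order, 1221, 1494, 1352, 1081 and 2219, and in glial nuclei 923 and 696; with a minimum of 100 UMIs 40, 87, 70, 13 and 68, and 212 and 78. At that minimum the median log2 ratio of the glucocorticoid list in oligodendrocyte-like nuclei was -0.051 and that of the proliferation list 0.020. Thinned to 1000 UMIs they were 150, 215, 240, 23 and 27, with 139 lower in glial nuclei, and the log2 ratios of Mad1l1 (-1.18), Rpl23 (-0.42), Rps12 (-0.20) and Tbck (-0.42) changed sign. With free RNA removed they were 1372 (astrocyte-like), 880 (oligodendrocyte-like) and 209 (precursor-like), with 1232 higher and 512 lower in glial nuclei. In microglia-like nuclei they were 193 above 2000 UMIs and 195 at a neuronal share under 0.1%, and in endothelial-like nuclei 183 under 5% mitochondrial UMIs. Classes held at equal shares left 311 genes higher in glial nuclei and gave the myelin list there a median of 0.30.

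With the library labelled day 7 in place of day 3, 345 (astrocyte-like) and 142 (endothelial-like) genes were past 2-fold, and 359 higher in glial nuclei. The share difference was then 1.37 points for endothelial-like and 0.791 for oligodendrocyte-like nuclei, the latter with its sign changed. Medians were -1.31 (glucocorticoid, oligodendrocyte-like), 0.053 (matrix), 0.12 (myelin, glial nuclei), -0.093 (oligodendrocyte reactive) and -0.70 (stress). The log2 ratio of 1700001K19Rik was -0.28, that of Gm28438 -0.26 (astrocyte-like), -0.28 (glial) and -0.22 (oligodendrocyte-like), and that of mt-Nd3 0.50 (astrocyte-like) and 0.55 (glial). Share differences also moved where 2 markers were enough (astrocyte-like 6.41, endothelial-like 5.98 points), above 2000 UMIs (microglia-like -2.28, oligodendrocyte-like -17.3) and under 5% mitochondrial UMIs (astrocyte-like 6.39). Values of endothelial-like, fibroblast-like and precursor-like nuclei rest on 6, 3 and 22 nuclei at day 1. Free-RNA removal gave no shares. No paired analysis was possible because each group had 1 library.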

Other observations

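Ide, insulin-degrading enzyme, stood at 56.4 CPM in the glial nuclei of the sham library, 42.9 on day 1, 40.9 on day 3 and 54.6 on day 7, and over all barcodes at 65.2, 42.9, 38.6 and 79.9 CPM.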
